A study of Mus musculus with 4 samples.

Results

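The genes described here encode the inflammasome and the machinery of pyroptosis, an inflammatory form of cell death in which the plasma membrane is opened by pores. The members were taken by symbol, and 9 of the 24346 rows of the expression table carried one of the names: Nlrp3, Aim2 and Nlrc4 as sensors, Pycard and Nek7 as adaptor and licensing kinase, Casp1 and Casp4 as inflammatory caspases, Gsdmd as pore former and Il18 as cytokine substrate. RNA-seq was performed on mBMSCs, cells grown from the bone marrow of 3-month-old C57BL/6 mice (C57BL/6J in the methods of the study) and labelled as mesenchymal stem/progenitor cells. The cells received a scrambled siRNA (siScr, 2 samples) or siRNA against ZBP1 (siZBP1, 2 samples) with a lipid transfection reagent, and RNA was collected 72 h later. The labels give no altered allele in either group, all samples were transfected, and which of the study's siRNAs against ZBP1 was used for sequencing is not named in the sources used here.

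An inflammasome forms when a sensor recognizes a danger signal in the cytosol and recruits caspase-1, in many cases through the adaptor ASC, the product of Pycard. Caspase-1 then cuts the precursors of IL-1β and IL-18 and also gasdermin D, whose released fragment forms pores, whereas mouse caspase-11, the product of Casp4, senses bacterial lipopolysaccharide directly and cuts gasdermin D without a sensor of the NLR family. ZBP1 itself binds Z-form nucleic acids and can start cell death through RIPK3 and caspase-8, and it has been placed upstream of NLRP3 in infected macrophages, the cell type in which most of these genes are best known.

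Values are FPKM, that is fragments counted on a gene divided by its length and by the mapped fragments of the sample, so that levels of different genes are compared per length. Fold changes were fitted with limma on log2(FPKM + 1), a scale that understates changes of low genes, over the 11959 genes that reached a mean of 1 FPKM, and a gene is said to have risen or fallen where the adjusted p was under 0.05. The approximate depth, read from the spacing of the lowest FPKM values, was 14 and 19 M fragments in the siScr samples and 10 and 17 M in the siZBP1 samples. Zbp1, the targeted gene, was at 86.0 and 62.0 FPKM in the siScr samples and at 11.5 and 11.6 FPKM in the siZBP1 samples. Both siZBP1 samples lay far below both siScr samples, and the fall by 2.56 on the log2 scale had a limma adjusted p of 0.00322. That call needed both siZBP1 samples, and without replicate 1 or 2 of them the log2 fold change was -2.55 and -2.57. With 1 siZBP1 sample left, few genes of the whole table pass the threshold. A call lost in that way is therefore not particular to a gene, here and below. The replicates are not stated to come from separate animals or cultures, so p-values measure only the spread between these samples, which may be technical.

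The label of the cells was set against defining markers. The mesenchymal genes Col1a1 and Col1a2 were abundant, but so were macrophage genes: Adgre1, which encodes F4/80, averaged 291 FPKM in siScr and 316 FPKM in siZBP1 samples, Csf1r averaged 469 and 571 FPKM, and Cd68 averaged 728 and 870 FPKM. The summed FPKM of 28 macrophage markers was 14200 and 15100 in the siScr samples and 20100 and 19300 in the siZBP1 samples, and that of 12 mesenchymal markers was 5620 and 4690 against 3230 and 3270. Macrophage RNA was thus present in every sample. The macrophage sum was higher in both siZBP1 samples than in both siScr samples, while the mesenchymal sum was lower. Lyz2 gained the most FPKM of the 28 macrophage markers, with means of 3230 and 5640, whereas Ctss was lower in both siZBP1 samples, with means of 2080 and 1880. In all 18 of the 28 rose, 0 fell and 10 were not called, with log2 fold changes from -0.15 to 1.25. Most of the difference in the mesenchymal sum came from Col1a1, with means of 2790 and 1160 FPKM. Col1a2 overlapped between groups, and Nt5e was higher in siZBP1 samples, at 20.8 and 21.3 against 2.73 and 5.48 FPKM. Of the 11 tested mesenchymal markers Nt5e alone rose and 5 fell, where 13.5% of all tested genes rose and 14.8% fell. The largest fall on the log2 scale was that of Cxcl12, with means of 61.5 and 7.89 FPKM. In RNA from a whole culture, more or fewer cells of a type and more or less RNA per cell cannot be told apart. Neutrophil and lymphocyte markers were low, with sums of 2.11 to 6.09 and 4.50 to 6.46 FPKM, S100a9 at 0 in every sample, and S100a8 at no more than 4.52 FPKM. Most of the lymphocyte sum was Cd4, at 3.66 and 3.68 FPKM in siScr and 5.61 and 5.33 FPKM in siZBP1 samples, which rose by 0.47 with a limma adjusted p of 0.0190. Lyz2, Ctss, Col1a1, Col1a2, Nt5e, Cxcl12, Cd4 and, further on, the named osteoclast markers were singled out from the marker lists after their values were seen.

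In the 9 inflammasome and pyroptosis genes, the siZBP1 mean was above the siScr mean without exception, but only some of the differences passed the test. Nlrp3, Casp4, Nlrc4 and Nek7 rose, which is 4 of 9 genes where 13.5% of all tested genes rose. None of the 9 fell, where 14.8% of all tested genes fell. Their median difference on the log2 scale was 0.26, against 0.0045 over all tested genes. In 7 of the 9 genes both siZBP1 samples lay above both siScr samples, an arrangement seen in 34.7% of tested genes, with the opposite arrangement in 33.7% of tested genes and in none of the 9. Nlrp3 and Casp4 differed by more than 1.5-fold between group means, as did 4.51% of tested genes in that direction. The calls of these genes needed both siZBP1 samples, as did those of nearly all genes of the whole table. Without single samples the log2 fold change ranged from 0.7 to 0.77 for Casp4 and from 0.42 to 0.67 for Nlrp3. It ranged from 0.34 to 0.41 for Nlrc4 and from 0.16 to 0.21 for Nek7. With the mean log2 level of the macrophage markers subtracted in each sample, 1 gene (Casp4) was higher and 2 (Casp1 and Nek7) were lower in siZBP1 samples. Of the 11959 tested genes 221 were higher and 7531 lower on that scale.

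**Figure D1:**
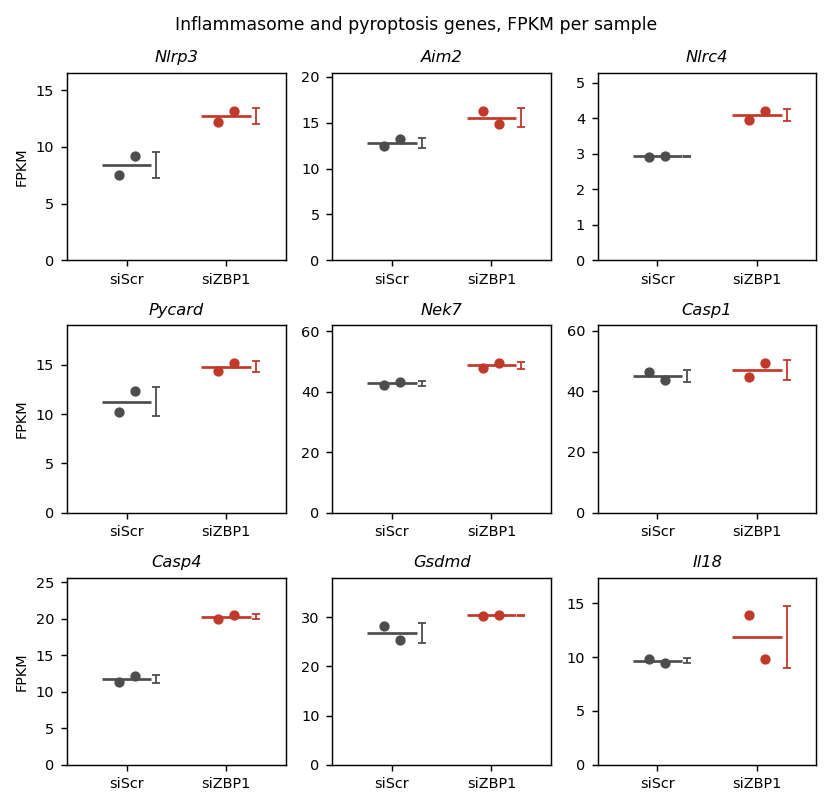
FPKM of each of the 9 genes in the 2 siScr and 2 siZBP1 samples, on linear axes that start at 0. Points are samples, horizontal lines are group means and the error bar beside each group is the SD (n = 2); the groups overlap for Casp1 and Il18 only, and are farthest apart in proportion for Casp4.

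The sensors were considered first. Nlrp3, which responds to potassium loss and many kinds of membrane or organelle damage, was measured at 7.57 and 9.21 FPKM in the siScr samples and 12.2 and 13.2 FPKM in the siZBP1 samples. Both siZBP1 samples were above both siScr samples, by 1.32 to 1.74 times in the closest and the farthest pair. The rise was 0.55 ± 0.11 on the log2 scale (SE, n = 2 per group, 95% interval 0.27 to 0.83), with a limma adjusted p of 0.0256, and group means rose from 8.39 to 12.7 FPKM. The adjusted p was 0.0748 without siScr replicate 1, and 0.144 and 0.158 without siZBP1 replicate 1 and 2. Against the macrophage markers the difference was 0.18 with an adjusted p of 0.165, and 6 of the 28 macrophage markers had a larger fold change than Nlrp3.

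Nlrc4, which assembles after the NAIP proteins bind flagellin or secretion system proteins, was the lowest of the 9 genes. Its levels were 2.92 and 2.94 FPKM in siScr and 3.96 and 4.21 FPKM in siZBP1 samples. The siScr samples nearly coincided, and both siZBP1 samples lay above them. The rise was 0.37 ± 0.089 (SE, n = 2 per group, 95% interval 0.14 to 0.61), limma adjusted p = 0.0411, and it lost the call without any 1 of the 4 samples, with adjusted p-values of 0.0899 to 0.175. Its difference relative to the macrophage markers was 0.00. Nlrc4 also overlaps a processed pseudogene, CT033749.1, on the same strand.

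Aim2, the cytosolic sensor of double-stranded DNA, stood at 12.4 and 13.2 FPKM in siScr and 16.3 and 14.8 FPKM in siZBP1 samples. The groups did not overlap, but the difference of 0.26 (95% interval 0.07 to 0.46) missed the threshold with a limma adjusted p of 0.0605. With the macrophage markers subtracted it was -0.10. The annotated Aim2 locus holds 7 transcripts and overlaps Cadm3 on the opposite strand, and whether strand was used in counting is not stated.

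The adaptor ASC links sensors to caspase-1. Pycard was at 10.2 and 12.3 FPKM in siScr and 14.4 and 15.2 FPKM in siZBP1 samples. The groups were apart, and siScr replicate 1 was the lowest sample. The difference of 0.37 (95% interval 0.11 to 0.63) had a limma adjusted p of 0.0528, just above the threshold, and relative to the macrophage markers it was 0.00. Pycard also overlaps the annotated locus Gm45205 on the opposite strand, so reads of both may have been counted together.

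Nek7, a kinase that binds NLRP3 and licenses its assembly and that also acts in mitosis in many cell types, was at 42.3 and 43.4 FPKM in siScr and 47.9 and 49.6 FPKM in siZBP1 samples. All samples of a group lay close together, and the siZBP1 samples were higher. The rise was small, 0.18 ± 0.044 (SE, n = 2 per group), with a limma adjusted p of 0.0420, and it lost the call without any 1 of the 4 samples, with adjusted p-values of 0.0775 to 0.204. After subtraction of the macrophage markers it turned to -0.19 with an adjusted p of 0.0283. The ratio of Nlrp3 to its partner Nek7, a quantity chosen after the values were seen, was 0.179 and 0.212 in siScr and 0.255 and 0.266 in siZBP1 samples. Nek7 overlaps the annotated loci Gm28501 on the opposite strand and Gm37080 and Gm37101 on the same strand.

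Of the inflammatory caspases, Casp4 had the largest change of the 9 genes and Casp1 the smallest. Casp4 was measured at 11.4 and 12.1 FPKM in the siScr samples and 20.0 and 20.5 FPKM in the siZBP1 samples. The replicates differed by a few percent, and the lowest siZBP1 sample was 1.65 times the highest siScr sample. The rise was 0.74 ± 0.057 on the log2 scale (SE, n = 2 per group, 95% interval 0.58 to 0.89), limma adjusted p = 0.00421, and means rose from 11.7 to 20.2 FPKM. The call was kept without either siScr sample, but the adjusted p was 0.0806 and 0.0728 without siZBP1 replicate 1 and 2. Relative to the macrophage markers Casp4 was still higher, by 0.37 with an adjusted p of 0.00663, although 3 of the 28 macrophage markers had a larger fold change.

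Casp1, the caspase shared by the canonical inflammasomes, was at 46.4 and 43.7 FPKM in siScr and 44.7 and 49.4 FPKM in siZBP1 samples. The groups overlapped, and no difference was detectable, with a log2 fold change of 0.06, a 95% interval of -0.12 to 0.24 and a limma adjusted p of 0.549. Its sign turned to -0.01 without siZBP1 replicate 2, and relative to the macrophage markers Casp1 was lower, at -0.31 with an adjusted p of 0.0238. The ratio of Casp4 to Casp1, also chosen after the values were seen, was 0.246 and 0.276 in siScr and 0.446 and 0.414 in siZBP1 samples. This ratio needs no scaling between samples, and its log2 difference of 0.72 had an exact two-sided permutation p of 0.333, the smallest that 2 samples against 2 can give.

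Casp1, Casp4 and Casp12 lie in tandem on the + strand of chromosome 9 in GRCm38. In the GENCODE M21 annotation Casp1 spans chr9:5298517-5307265, Casp4 starts 1562 bases further on and spans chr9:5308828-5336783, and Casp12, another caspase of the same cluster, begins 8646 bases after Casp4 and spans chr9:5345430-5373032. Casp12 was at 13.0 and 12.2 FPKM in siScr and 19.0 and 18.4 FPKM in siZBP1 samples. The groups were apart, with a rise of 0.53 and a limma adjusted p of 0.00803 that was lost without siZBP1 replicate 1 (0.103) or 2 (0.0867). The first gene of the tandem thus showed no detectable difference, and the next pair rose.

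The upstream regions of Casp1 and Casp4 are printed because the genes are neighbours with unlike responses. Each is the 250 bases before an annotated start, from RefSeq on GRCm38.p6, + strand, 5′ to 3′, and capitals mark matches to the κB-type pattern GGGNNTTTC, a binding core of NF-κB, on either strand.
Casp4, chr9:5308599-5308848: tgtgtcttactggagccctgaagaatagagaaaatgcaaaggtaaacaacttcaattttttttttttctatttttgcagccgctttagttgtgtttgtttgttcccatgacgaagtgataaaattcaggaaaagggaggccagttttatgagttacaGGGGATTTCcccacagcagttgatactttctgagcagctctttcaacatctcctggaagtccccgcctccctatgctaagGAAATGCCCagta
Casp1, chr9:5298267-5298516: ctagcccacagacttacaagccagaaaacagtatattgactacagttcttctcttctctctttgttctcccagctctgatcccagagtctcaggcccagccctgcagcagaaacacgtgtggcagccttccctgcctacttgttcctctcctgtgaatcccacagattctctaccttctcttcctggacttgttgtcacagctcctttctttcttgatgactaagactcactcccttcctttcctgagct
The printed Casp4 window held 2 matches, whose most upstream bases lay at -93 and -13 from its RefSeq start, and the Casp1 window held none. In a second, overlapping Casp4 window the same matches lay at -104 and -24, so these positions depend on the start used. The GENCODE start of Casp4, at 5308828, lies inside the printed window, upstream of the match at -13. The table gave 10 windows for 8 of the 9 genes, with Gsdmd not matched. The κB-type pattern occurred in 3 of the 10 windows, a pair of overlapping windows of Casp4 and that of Aim2, and in 3.72% of 32851 promoters. A PU.1-type pattern, GAGGAAGT, occurred in the windows of Aim2 and Pycard and in 2.44% of all promoters. The interferon-type pattern GAAANNGAA (7.13% of all promoters), the STAT pattern TTCNNNGAA (7.02%) and the AP-1 pattern TGANTCA (6.75%) had no match in the 10 windows. All patterns were searched on both strands. They were chosen with the sequences in view, and those for κB and interferon were shortened by a letter after a first search. No match overlapped one of another pattern, and a match is a description of letters only.

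Gsdmd, which encodes the pore former cut by both caspases, was at 28.2 and 25.4 FPKM in siScr and 30.3 and 30.4 FPKM in siZBP1 samples. The groups did not overlap but lay close, and the difference of 0.18 (95% interval 0.01 to 0.34) had a limma adjusted p of 0.108. On the scale of the macrophage markers it was -0.19 with an adjusted p of 0.0868.

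Il18, a cytokine whose precursor is kept in resting macrophages and many epithelia, was at 9.83 and 9.49 FPKM in siScr and 13.9 and 9.80 FPKM in siZBP1 samples. Only siZBP1 replicate 1 stood above the siScr samples, and replicate 2 fell between them. The fitted difference of 0.25 (95% interval -0.18 to 0.69, limma adjusted p = 0.315) rested on the choice of siZBP1 sample. It was 0.02 when siZBP1 replicate 1 was left out and 0.49 when replicate 2 was, with adjusted p-values of 0.911 and 0.0949. The 9 genes differ in the number of fragments behind them, estimated here from FPKM, depth and the longest annotated coding transcript. By that estimate Il18 had the fewest, roughly 100 to 200 per sample, against 3000 to 5000 for Nek7. The order depends on the lengths used, which were 885 bases for Il18 and 3800 for Pycard. Il18 also overlaps Bco2 and Tex12 on the opposite strand.

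Across genes, the order of levels in siScr samples ran from Casp1 at a mean of 45.1 FPKM through Nek7, Gsdmd, Aim2, Casp4, Pycard and Il18 to Nlrp3 and Nlrc4 at 2.93 FPKM. Of the neighbours in that order, Casp4 and Pycard overlapped in siScr samples. In siZBP1 samples the neighbouring pairs that overlapped were Casp1 and Nek7, and Il18 and Nlrp3. The order of Casp4 and Aim2 turned without overlap, since Casp4 was below Aim2 in both siScr samples and above it in both siZBP1 samples, where the means were 20.2 and 15.6 FPKM. Outside the Casp1 tandem, the genes lie apart on GRCm38, with Nlrp3 at chr11:59541568-59566956 (+), Aim2 at chr1:173350879-173466040 (+), Nlrc4 at chr17:74425438-74459142 (-) and Pycard at chr7:127989708-127993867 (-). Nek7 lies at chr1:138482875-138620141 (-), Gsdmd at chr15:75862327-75867408 (+) and Il18 at chr9:50554827-50581840 (+).

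**Figure D2:**
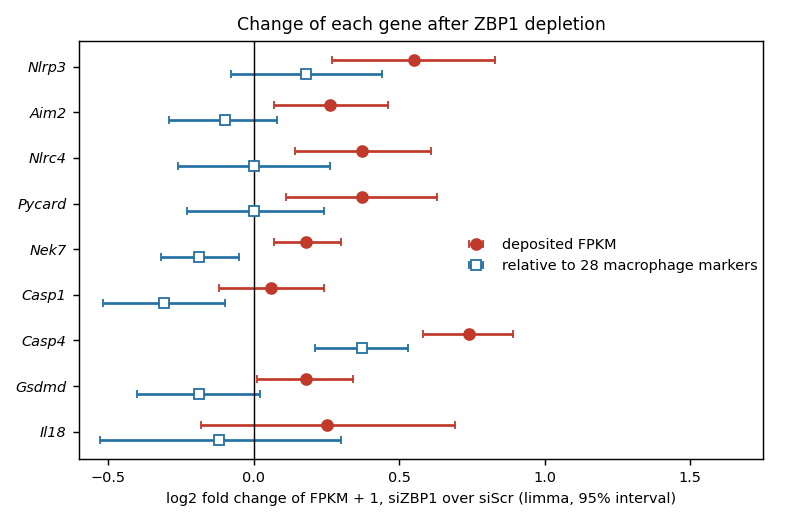
Log2 fold change of FPKM + 1 (x axis, siZBP1 over siScr) for the 9 genes, with 95% intervals from limma. Filled circles use the deposited FPKM and open squares the values after the mean log2 level of 28 macrophage markers was subtracted in each sample; Casp4 is the only gene whose interval lies above 0 on both scales, at 0.74 and 0.37.

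Several marker lists moved with the groups beside these results. Of the 28 macrophage markers, 18 rose and 0 fell, a median difference of 0.33 on the log2 scale, and their mean log2(FPKM + 1) was 7.90 and 7.95 in siScr and 8.30 and 8.28 in siZBP1 samples. The calls of these markers needed both siZBP1 samples, and without single samples their median difference ran from 0.3 to 0.36. Of 11 tested mesenchymal markers 1 rose and 5 fell. Of 12 interferon-stimulated genes, all tested, 0 rose and 3 fell, with a median of -0.31. Of 7 osteoclast markers 2 were expressed well enough to be tested, and of these 0 rose and 1 fell. Beside these counts stand the 13.5% of all tested genes that rose and the 14.8% that fell. The osteoclast marker that fell was Ctsk, by 0.60 on the log2 scale with a limma adjusted p of 0.00543. Acp5 was not called, and Dcstamp and Mmp9, below the limit, were higher in both siZBP1 samples. The part of these markers in the changes of the inflammasome genes was not tested.

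Beyond the 9 genes, 87 other genes of the pathway were listed in 14 groups by role, and 68 of them were expressed well enough to be tested. Of these, 15 (22.1%) rose, 7 (10.3%) fell and 46 did not pass the test, beside 13.5% and 14.8% of all tested genes, and the median difference was 0.09 on the log2 scale. Relative to the macrophage markers 2 of the 68 were higher and 38 lower, with a median of -0.28. Of the 11959 tested genes 221 were higher and 7531 lower on that scale, so most genes were lower there. The calls of the 68 genes on the deposited scale needed both siZBP1 samples, and without single samples their median difference there ran from 0.03 to 0.13. The genes described below come from the called ones with the largest fold change in each group, up to 3.

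**Figure D3:**
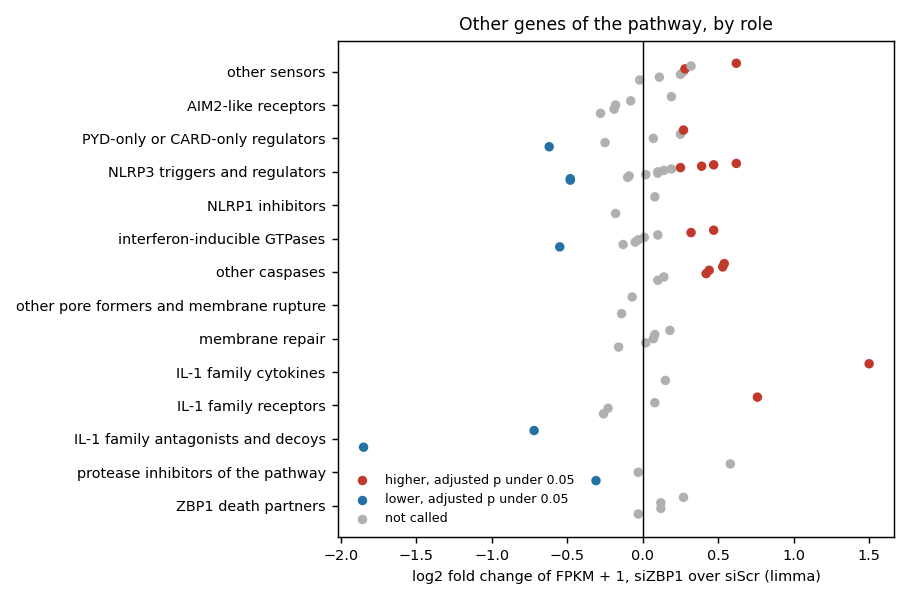
Log2 fold change of FPKM + 1 (x axis, siZBP1 over siScr, limma) for the 68 tested genes of 14 pathway groups (y axis), with 1 point per gene coloured by its call at an adjusted p under 0.05. The cytokine Il1b lies farthest to the right, at 1.5, and the antagonist Il1rn farthest to the left, at -1.85.

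The largest changes among the 68 genes were those of Il1rn, Il1b and Il18rap. Il1b, which encodes the other cytokine cut by caspase-1, was low, at 0.714 and 1.02 FPKM in siScr and 3.10 and 5.77 FPKM in siZBP1 samples. Both siZBP1 samples were higher, and they differed from each other by 1.86 times. The rise of 1.5 ± 0.27 (SE, n = 2 per group) had a limma adjusted p of 0.0210. That call was lost without any 1 sample, with the adjusted p between 0.0748 and 0.112. Relative to the macrophage markers the rise was 1.13 with an adjusted p of 0.0169, and none of the 28 markers had a larger fold change.

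Il1rn, which encodes the antagonist that occupies the IL-1 receptor, was at 42.9 and 28.9 FPKM in siScr and 9.69 and 8.51 FPKM in siZBP1 samples. The siScr samples were the more scattered, and both were above both siZBP1 samples. It fell by 1.85 on the log2 scale with a limma adjusted p of 0.00711, which became 0.0943 when siZBP1 replicate 1 was left out and 0.0879 when replicate 2 was. The ratio of Il1b to Il1rn was 0.0166 and 0.0353 in siScr and 0.320 and 0.678 in siZBP1 samples, a log2 difference of 4.26.

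Il18bp, which encodes a secreted protein that captures IL-18, was at 14.4 and 12.1 FPKM in siScr and 7.42 and 7.84 FPKM in siZBP1 samples. The groups were apart, and it fell by 0.72 on the log2 scale with a limma adjusted p of 0.0114, or 0.120 and 0.0971 without siZBP1 replicate 1 and 2. The ratio of Il18 to Il18bp was 0.681 and 0.783 in siScr and 1.88 and 1.25 in siZBP1 samples, so that the ratio was above 1 only in siZBP1 samples. Both ratios were chosen after the values were seen and had an exact two-sided permutation p of 0.333, the smallest possible with these samples. Il1rn and Il18bp were the tested members of their group of antagonists and decoys, so 2 of 2 fell, where 14.8% of all tested genes did. Il1r2 and Sigirr were below the limit of a mean FPKM of 1.

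**Figure D4:**
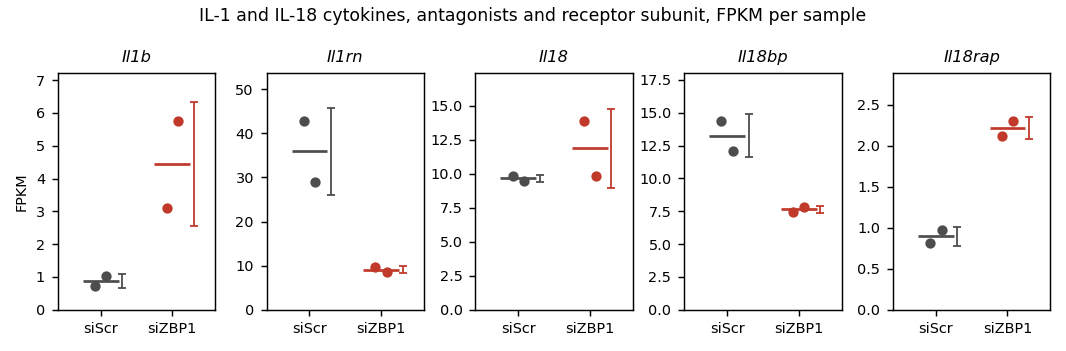
FPKM of Il1b, Il1rn, Il18, Il18bp and Il18rap in the 2 siScr and 2 siZBP1 samples, on linear axes that start at 0. Points are samples, horizontal lines are group means and error bars are the SD (n = 2); Il1b and Il18rap are higher and Il1rn and Il18bp lower in both siZBP1 samples, and Il18 overlaps.

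Among the receptors, Il18rap, the accessory chain of the IL-18 receptor, was at 0.813 and 0.979 FPKM in siScr and 2.12 and 2.31 FPKM in siZBP1 samples. It rose by 0.76 with a limma adjusted p of 0.0168, and the adjusted p was 0.0517 without siScr replicate 1 and 0.103 and 0.0971 without siZBP1 replicate 1 and 2. Il18r1, the ligand-binding chain, stayed at or below 0.131 FPKM in every sample. The other receptors Il1r1, Il1rap and Il1rl1 did not pass the test, and Il1a and Il33 were below the limit.

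Other caspases rose in 4 of 6 cases, with 0 falls, where 13.5% of all tested genes rose and 14.8% fell. Casp8, the caspase that ZBP1 and RIPK1 can engage and that can also cut gasdermin D, was at 20.2 and 21.1 FPKM in siScr and 29.3 and 27.3 FPKM in siZBP1 samples. The groups were apart, with a rise of 0.44 and a limma adjusted p of 0.0107. The calls among other caspases needed both siZBP1 samples, and without single samples their median difference ran from 0.37 to 0.48. Relative to the macrophage markers 0 of the 6 were higher and 2 were lower, where 221 and 7531 of the 11959 tested genes were. The partners through which ZBP1 starts cell death, Ripk1, Ripk3, Mlkl and Fadd, were called in 0 of 4 cases, with log2 fold changes between -0.03 and 0.27.

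Upstream of the sensors, P2rx7, the ATP-gated channel whose opening triggers NLRP3, was at 8.17 and 10.5 FPKM in siScr and 14.9 and 14.8 FPKM in siZBP1 samples. Both siZBP1 samples were higher, by 0.62 with a limma adjusted p of 0.0259, and the adjusted p was 0.169 and 0.149 without siZBP1 replicate 1 and 2. With the macrophage markers subtracted the difference of P2rx7 was 0.25 with an adjusted p of 0.0929. In the group of 13 tested NLRP3 triggers and regulators 4 rose and 2 fell, where 13.5% and 14.8% of all tested genes did. With the macrophage markers subtracted 0 were higher and 8 lower, and most genes of the whole table were lower on that scale. On the deposited scale the falls were Fbxl2, a ubiquitin ligase subunit that targets NLRP3, and Ptpn22, a phosphatase that acts on NLRP3. Each was at -0.48 on the log2 scale, with limma adjusted p-values of 0.0167 and 0.0399. Tmem176b, Txnip and Mark4, which the rule for naming left out, rose by 0.47, 0.39 and 0.25. Their limma adjusted p-values were 0.00641, 0.0202 and 0.0412.

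Of 7 other sensors tested, 2 rose and 0 fell, where 13.5% of all tested genes rose and 14.8% fell. Naip2, whose product senses the rod protein of bacterial secretion systems and recruits NLRC4, was at 11.6 and 11.1 FPKM in siScr and 14.0 and 14.0 FPKM in siZBP1 samples. Both siZBP1 samples were slightly higher, by 0.28 with a limma adjusted p of 0.0288, although reads of the closely similar Naip genes could have been divided between them. Nlrp10 rose by 0.62 from a mean of 0.725 FPKM to 1.64 FPKM, and Nlrp6 and Nlrp12 were listed at 0 in every sample. None of the 5 AIM2-like receptors, neighbours and relatives of Aim2, passed the test, and 1 of the 5 had a fold change above 0.

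Among the 5 genes listed as PYD or CARD regulators Pydc3, a PYD-only protein, fell by 0.62 (limma adjusted p = 0.0397). Card9, an adaptor of fungal recognition, rose by 0.27 (limma adjusted p = 0.0310). In the group of interferon-inducible GTPases, which open bacterial vacuoles or expose lipopolysaccharide to caspase-11, 2 of 8 tested genes rose and 1 fell. Gbp5 rose by 0.47 and Gm12250 by 0.32, whereas Igtp fell by 0.55, with limma adjusted p-values of 0.0272, 0.0251 and 0.0371. These counts lie near the 13.5% and 14.8% of all tested genes. The calls did not hold without siScr replicate 1, and without single samples the median difference ran from -0.08 to 0.08. With the macrophage markers subtracted 0 of the 8 were higher and 5 lower, and most genes of the whole table were lower on that scale.

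Downstream of the caspases there were few calls, beside the 13.5% of all tested genes that rose and the 14.8% that fell. With groups this small the counts cannot be told apart from those shares. Of the other pore formers and the membrane rupture proteins only Dfna5, the file's symbol for gasdermin E, and Ninj1 were expressed above the limit, at siScr means of 4.77 and 67.8 FPKM, and neither passed the test. The 5 membrane repair genes of the ESCRT machinery, which can remove gasdermin pores, gave 0 calls. Of 3 tested protease inhibitors of the pathway 0 rose and 1 fell. The one that fell was Serpinb9, at 8.15 and 8.18 FPKM in siScr and 6.36 and 6.37 FPKM in siZBP1 samples. It fell by 0.31 with a limma adjusted p of 0.0300, and neither Dpp8 nor Dpp9, the inhibitors of NLRP1, passed the test. As for all 18 genes chosen by the rule from these groups, no call was left without either siZBP1 sample.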

How the data were processed

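RNA of mBMSCs was sequenced in 2 siScr and 2 siZBP1 samples. The deposited values are FPKM per gene symbol, which the authors obtained from TruSeq libraries. The study's methods name Tophat and HTSeq, the submitters' processing notes name TopHat, Cufflinks and mm10, and the annotation and strand setting are not given in the sources used here. The authors also deposited the 2 group means, which equal the means of the replicates and were not used. Replicate numbers were not used to pair samples.

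Limma 3.58.1 in R 4.3.3, with a variance trend, was fitted to log2(FPKM + 1) of the 11959 genes that reached a mean of 1 FPKM. Tests were two-sided, with Benjamini-Hochberg adjustment at 0.05 over all of these genes. In simulated data with 200 genes changed by 1.5 on the log2 scale, 189 were found, with 15 false calls among 11759 others. The largest change of a member was 0.74, so the simulation does not cover changes of that size. The FPKM carry no read counts. Approximate depth came from the spacing of low values, and no counting error was computed. Members and lists were chosen with earlier results of these data known. All members and, per pathway list, up to 3 called genes with the largest fold change were chosen for naming, and some items are not reported here. Alternatives covered the pseudocount, the filter, scaling, the block, the trend, small RNA genes and leaving out each sample. Promoters came from RefSeq GRCm38.p6, and positions from GENCODE M21. Python 3.11.15 with numpy 2.4.6, pandas 2.3.3, scipy 1.17.1 and matplotlib 3.10.9 was used.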

Additional observations from a re-analysis of the deposited data

How the results depend on the processing

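With 2 samples per group, leaving out 1 leaves a lone sample that is assumed to vary like the other group. Without single samples the members risen numbered 0 to 3 and those fallen 0, all genes risen 22 to 1019 and fallen 23 to 1297, the log2 fold change of Zbp1 ranged from -2.79 to -2.33 and that of Casp1 from -0.01 to 0.13, and members over 1.5-fold numbered 1 to 2. By the ratio of mean FPKM + 1 only 1 member was over 1.5-fold. The replicate block gave 3 members risen (Casp4, Nlrp3 and Pycard, with Nlrc4 at an adjusted p of 0.073 and Nek7 at 0.0605), and 1465 genes risen and 1654 fallen in all. Deviations of same-numbered samples had r = -0.063 across 11959 genes, which does not settle whether such samples share a culture or batch. Without small RNA genes 6 members rose, adding Pycard and Aim2. Calls grew over the whole table too, to 1916 genes risen and 2070 fallen, from 1618 and 1766 in the main fit. The other scalings, filters and pseudocount, and the fit with no variance trend, gave 3 to 5 members risen and none fallen. Over all genes these settings gave 1231 to 1812 risen and 1517 to 1841 fallen. Median-ratio and quantile scaling shifted the median of all genes by -0.0072 and 0.0389. Relative to the macrophage markers the median shifted by -0.37, 1 member was higher and 2 lower, and over all genes 221 were higher and 7531 lower. The sign turned for Casp1 (-0.31), Gsdmd (-0.19), Aim2 (-0.10), Il18 (-0.12), Nek7 (-0.19), Card9 (-0.10), Gm12250 (-0.05) and Naip2 (-0.09), since the mean of the markers, 0.37, was subtracted. Of 230 values for the 18 pathway genes chosen by the rule, 153 kept direction and side of the threshold, 74 lost the call and 3 turned. By the approximate fragment numbers, which rest on the longest annotated coding transcripts, depth limits Il18 and Nlrc4 most among the members.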
